A study of Mus musculus with 24 samples.

Results

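The 7 sirtuins of the mouse, Sirt1 to Sirt7, were followed through cold exposure and recovery in brown fat with and without the histone deacetylase Hdac3. They were taken by gene symbol, with no measured value used, and all 7 were listed in each of the 5 deposited tables, which together hold 13162 genes. Total RNA of interscapular brown adipose tissue was sequenced after removal of ribosomal RNA. The 24 libraries came from male mice on a C57BL/6 background aged 10 to 12 weeks, all collected at the same hour of the day. Control mice carried floxed Hdac3 alleles without Cre, and KO mice carried the same alleles with Ucp1-cre. This Cre acts in brown adipocytes, so that vessels, nerves, immune cells and other cells of the tissue kept the gene. In each genotype 4 libraries came from mice kept at 22 °C, 4 from mice that spent 24 h at 15 °C followed by 24 h back at 22 °C (24 h recovery), and 4 from mice given 7 d back at 22 °C (7 d recovery). No group was sampled during the cold itself. The series asks whether an effect of cold lasts after return to room temperature, and whether it does so without Hdac3.

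Sirtuins remove acetyl and other acyl groups from lysines, or transfer ADP-ribose, and they use up NAD with each reaction, which ties them to the cell's supply of this cofactor. Sirt1, Sirt6 and Sirt7 are found mainly in the nucleus, Sirt2 mainly in the cytosol, and Sirt3, Sirt4 and Sirt5 in mitochondria. Hdac3, which was deleted here, is an unrelated, zinc-dependent deacetylase that works in nuclear receptor corepressor complexes. Brown adipocytes are packed with mitochondria and make heat through the uncoupling protein Ucp1, and mitochondrial sirtuins act on the enzymes that feed this process with fuel.

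The promoters of Sirt1, Sirt3 and Sirt5 are shown because Sirt3 and Sirt5 were called lower in KO mice at 22 °C and Sirt1 was called lower after recovery in both genotypes. Each sequence is the 250 bases before the annotated start, 5′ to 3′ on the gene's strand, from RefSeq on GRCm38.p6, a later build than the mm9 of the deposited tables. Capitals mark matches to the motifs listed after them.
Sirt1, chr10:63339036-63339285, minus strand: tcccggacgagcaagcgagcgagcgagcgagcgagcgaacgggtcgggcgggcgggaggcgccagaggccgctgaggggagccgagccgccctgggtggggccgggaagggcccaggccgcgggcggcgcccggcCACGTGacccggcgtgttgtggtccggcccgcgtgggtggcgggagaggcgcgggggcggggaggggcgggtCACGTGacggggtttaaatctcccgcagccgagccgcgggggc
Sirt3, start site 1 of 2, chr7:140882310-140882559, minus strand: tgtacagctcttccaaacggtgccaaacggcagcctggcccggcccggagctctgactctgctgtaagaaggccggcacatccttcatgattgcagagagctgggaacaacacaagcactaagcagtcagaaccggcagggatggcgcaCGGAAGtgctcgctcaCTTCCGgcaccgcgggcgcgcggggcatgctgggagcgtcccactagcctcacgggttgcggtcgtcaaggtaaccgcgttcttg
Sirt5, chr13:43365285-43365534, plus strand: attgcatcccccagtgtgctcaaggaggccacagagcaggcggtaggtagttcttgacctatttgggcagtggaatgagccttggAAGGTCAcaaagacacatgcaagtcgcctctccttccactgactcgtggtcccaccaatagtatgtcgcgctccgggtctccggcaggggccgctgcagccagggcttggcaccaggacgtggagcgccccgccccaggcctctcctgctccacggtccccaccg
Both strands of the 250 bases before and 50 bases after each start were searched for TNAAGGTCA (the estrogen-related receptor element), AAGGTCA (a nuclear receptor half-site that the former contains), CACGTG (an E-box), CGGAAG (the core of ETS sites) and TGACGTCA (the cyclic AMP response element). The E-box stood at 115 and 43 bases before the Sirt1 start, and 7.2% of 32851 mouse promoters in the table held it. The ETS core stood at 101 and 85 bases before start site 1 of Sirt3 and was held by 16.9% of promoters, and 1 more match lay just past the start. Sirt6 held 2 ETS cores and Sirt7 4, while Sirt2 and Sirt4 held no match to any of the motifs. The half-site AAGGTCA stood at 165 bases before the Sirt5 start and was held by 4.7%. None of the 7 genes had a match to TNAAGGTCA, which 1.3% of promoters held, or to TGACGTCA, held by 1.8%, so these letters are not in these windows. A match is a string of letters and was not tested as a binding site.

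Library totals ranged from 4637903 to 12538811 counted reads, and a single library held between 18 (Sirt6) and 803 (Sirt3) reads of a sirtuin. Hdac3 stood at 23.4 to 28.7 RPKM (reads per length of transcript and per library total) in the 12 Control libraries and at 5.82 to 9.00 RPKM in the 12 KO libraries, with no overlap. Which cells and which part of the transcript the remaining reads come from was not tested. The RPKM means are not normalized between libraries. For the median gene the log2 ratio of KO to Control means minus the deposited log2 fold change was -0.24 at 22 °C, -0.14 at 24 h and -0.07 at 7 d, and for recovery it was -0.06 in Control and 0.03 in KO mice. Fold changes in the text are the deposited ones, so they can differ from the ratio of the RPKM values beside them. Whether libraries overlap is stated for RPKM and, where it differs, after scaling. Groups without overlap were common. Among 9639 genes with all library values, RPKM of KO and Control libraries did not overlap for 38.1% at 22 °C. The share was 23.7% at 24 h and 21.3% at 7 d, and after scaling 31.8%, 18.6% and 19.7%. Against 22 °C, RPKM did not overlap for 19.9% at 24 h and 17.8% at 7 d in Control mice. In KO mice these shares were 38.3% and 36.9%. In whole tissue, fewer cells of a type and less RNA per cell cannot be told apart.

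Per transcript length, Sirt3 was the most abundant sirtuin in 5 of the 6 groups and Sirt2 the second, and both stood clear of all others in every group. In Control mice at 22 °C the order of mean levels was Sirt3 at 42.3 RPKM, Sirt2 at 25.5, Sirt5 at 11.8, Sirt1 at 8.50, Sirt7 at 5.58, Sirt4 at 3.24 and Sirt6 at 2.54. Neighbours in this order had overlapping libraries for Sirt5 and Sirt1, for Sirt1 and Sirt7, and for Sirt4 and Sirt6, and did not overlap elsewhere. In all 4 recovery groups Sirt7 came before Sirt1 in mean level, with libraries that did not overlap in Control mice at 24 h (6.78 against 4.92 RPKM) and overlapped in the other 3. In the KO group at 22 °C, Sirt2 led at 21.6 RPKM, Sirt3 followed at 12.8, and Sirt5, at 4.87, came after Sirt1 at 6.09 and Sirt7 at 5.51. At both recovery times the order in KO mice was again Sirt3, Sirt2 and Sirt5, each with no library overlapping the next.

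**Figure D1:**
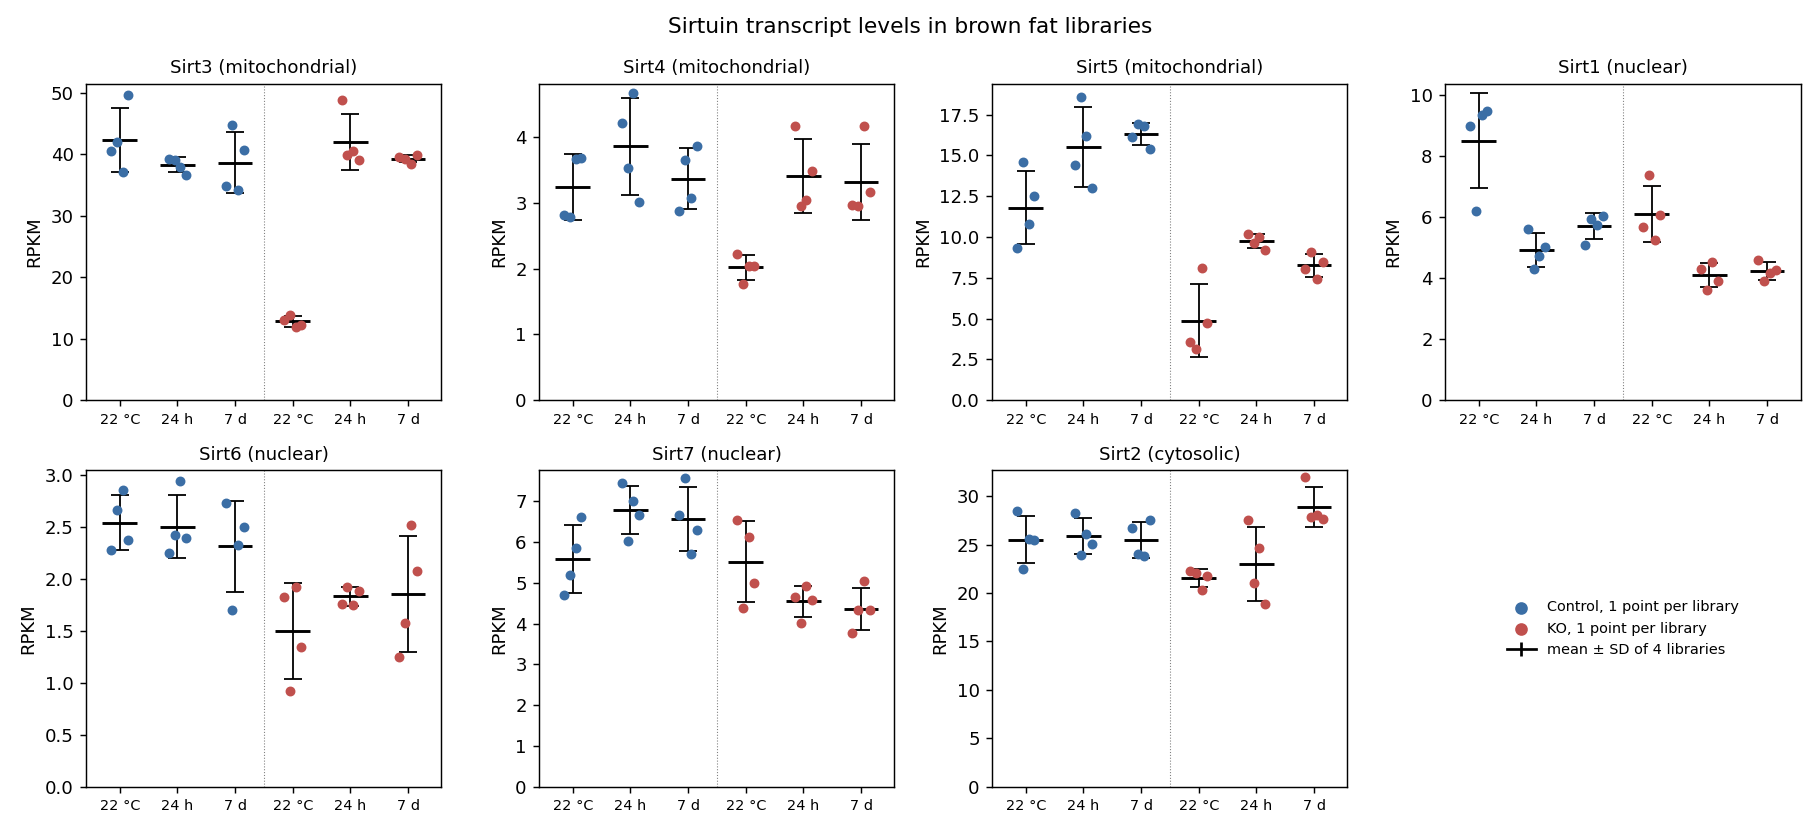
RPKM of each sirtuin (vertical axis, from 0) in 24 libraries, grouped along the horizontal axis as 22 °C, 24 h recovery and 7 d recovery in Control (blue) and KO mice (red), with 1 point per library and the mean ± SD of 4. Sirt3 in KO mice at 22 °C, at 11.9 to 13.9 RPKM, lies apart from all other groups.

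In the deposited edgeR tests, adjusted over 13414 genes with 0.05 as the threshold, KO against Control at 22 °C called 2 of the 7 sirtuins, Sirt3 and Sirt5, both lower. Among all listed genes 34.3% were called there. KO against Control called 1 (Sirt5, lower) at 24 h recovery, with 18.5% of all genes called, and 2 (Sirt5 and Sirt7, both lower) at 7 d recovery, with 15.3% called. Recovery for 24 h against 22 °C called 1 sirtuin in Control mice (Sirt1, lower; 21.8% of all genes) and 4 in KO mice (Sirt1 lower, Sirt3, Sirt4 and Sirt5 higher; 41.9% of all genes). With 7 genes, none of these counts is far from its background. Sirt2 and Sirt6 passed the threshold in none of the 5 tables. No deposited table compares 7 d recovery with 22 °C or with 24 h, and those contrasts were tested with limma on library values rebuilt from the deposited means.

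**Figure D2:**
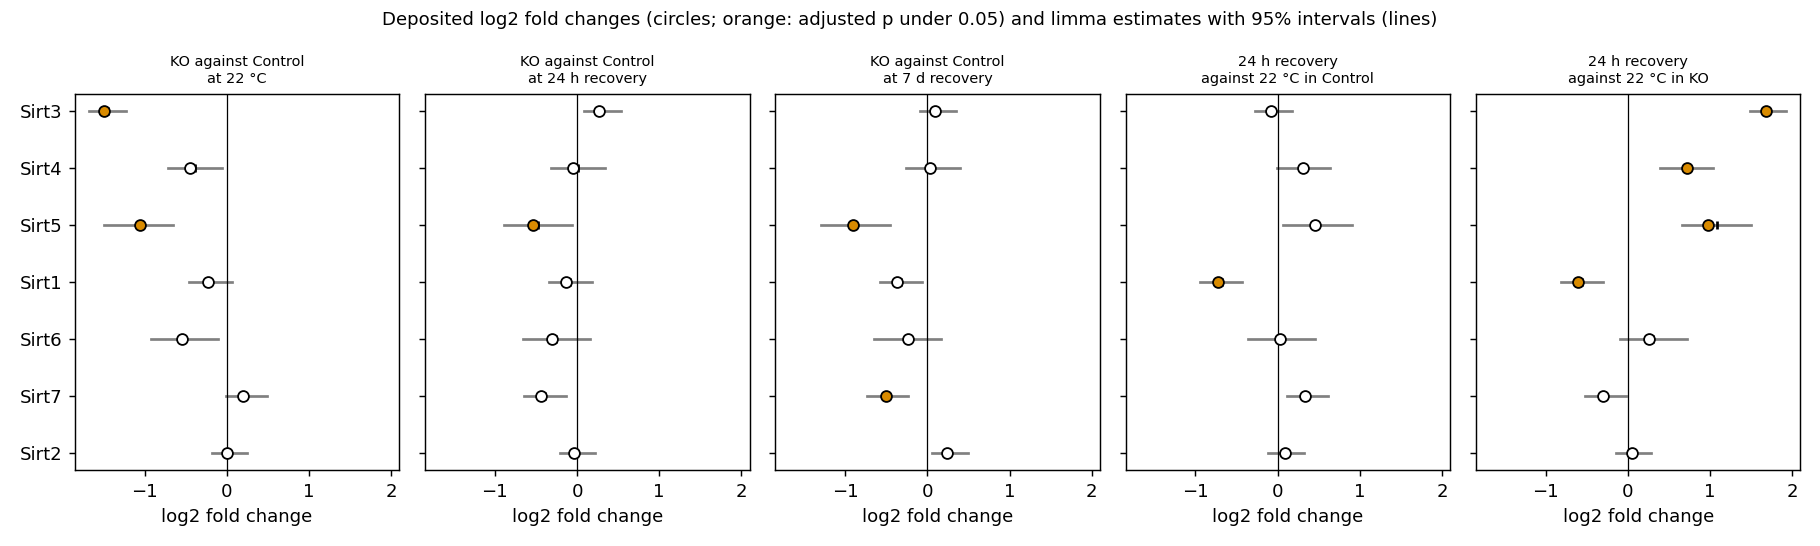
Log2 fold changes of the 7 sirtuins (vertical axis) in the 5 deposited comparisons (panels): circles are the authors' deposited values, filled orange where their adjusted p is under 0.05, and lines are 95% intervals of limma on the rebuilt library values, whose estimate is a tick. Sirt3 is at -1.49 for KO against Control at 22 °C and at 1.68 for 24 h recovery in KO mice, and near 0 in Control mice.

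Sirt3, the main protein deacetylase of the mitochondrial matrix, was the sirtuin that differed most. Control libraries held 37.1, 40.5, 42.0 and 49.6 RPKM at 22 °C, 36.7, 38.0, 39.1 and 39.3 at 24 h recovery, and 34.2, 34.9, 40.7 and 44.7 at 7 d recovery. KO libraries held 11.9, 12.3, 13.0 and 13.9 RPKM at 22 °C, then 39.0, 39.9, 40.5 and 48.8 at 24 h and 38.4, 39.2, 39.5 and 39.9 at 7 d. The KO libraries at 22 °C were the lowest of all 24, and both KO recovery groups lay within or at the top of the Control range. Sirt3 was 2.81-fold lower in KO than in Control mice at 22 °C by the deposited test (log2 fold change -1.49, adjusted p = 2.7e-24). It rose 3.21-fold from 22 °C to 24 h recovery in KO mice (log2 fold change 1.68, adjusted p = 4.1e-31), while the change in Control mice was -0.08 (adjusted p = 0.773). At 7 d the limma estimate for KO mice against 22 °C was still 1.58 ± 0.11 (SE; adjusted p = 1.7e-09), against 0.00 ± 0.11 in Control mice (adjusted p = 0.992). The genotype comparison at 22 °C and the recovery comparisons in KO mice use the same 4 KO libraries at 22 °C.

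The KO effect on Sirt3 differed between the times. The deposited log2 fold change of KO over Control went from -1.49 at 22 °C to 0.27 at 24 h and 0.09 at 7 d. The difference from 22 °C was 1.76 ± 0.19 (SE, rebuilt from the deposited p-values; adjusted p = 2.8e-17) at 24 h and 1.58 ± 0.19 (adjusted p = 1.0e-13) at 7 d. Among all genes, 18.2% and 14.8% passed this test at 24 h and 7 d, and among the sirtuins Sirt3 and Sirt7 did so at both times. At 24 h recovery Sirt3 in KO mice was not called above Control (adjusted p = 0.155). There the RPKM of the genotypes overlapped at 39.0 and 39.3 and the scaled values did not overlap. The limma 95% interval of KO over Control was 0.09 to 0.53 (adjusted p = 0.0515). Leaving out the shallowest Control library at 24 h gave an adjusted p of 0.0490.

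Genes on the opposite strand share exons with Sirt3 in the GRCm38 annotation, with the strand setting of the counting not given in the sources used here. Psmd13, a proteasome subunit gene among them, stood at 26.1 RPKM in Control and 25.0 in KO mice at 22 °C (log2 fold change 0.18, adjusted p = 0.302). It rose in KO mice at 24 h by 0.52 on the log2 scale (adjusted p = 1.3e-04), in the direction of Sirt3 but less. Cox8b, a cytochrome oxidase subunit gene and the next gene upstream on the same strand, was lower in KO mice at 22 °C (log2 fold change -0.84, adjusted p = 6.5e-08) and rose at 24 h in KO mice (0.92, adjusted p = 2.0e-09).

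Sirt5, which removes succinyl, malonyl and glutaryl groups from mitochondrial and other proteins, was the sirtuin called lower in KO mice in all 3 deposited comparisons with Control. Sirt1 and Sirt6 also had negative log2 fold changes in all 3 and were not called. Control libraries held 9.33, 10.8, 12.5 and 14.6 RPKM at 22 °C, 13.0, 14.4, 16.2 and 18.6 at 24 h recovery, and 15.4, 16.1, 16.8 and 16.9 at 7 d. KO libraries held 3.13, 3.55, 4.71 and 8.09 RPKM at 22 °C, 9.20, 9.63, 9.97 and 10.2 at 24 h, and 7.44, 8.05, 8.47 and 9.09 at 7 d. RPKM of the genotypes did not overlap at any time. After scaling they overlapped at 22 °C and 24 h and stayed apart at 7 d.

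The deposited log2 fold change of Sirt5 in KO over Control was -1.05 at 22 °C (adjusted p = 8.6e-06), -0.54 at 24 h (adjusted p = 0.0447) and -0.91 at 7 d (adjusted p = 2.4e-04). The call at 24 h was lost with limma (log2 fold change -0.47 ± 0.20, SE, adjusted p = 0.120), with a threshold of 0.01 and with a minimum change of 1.5-fold. From 22 °C to 24 h Sirt5 rose in KO mice by 0.97 (adjusted p = 3.9e-05), and at 7 d the limma estimate was 0.81 ± 0.20 (adjusted p = 0.00291). In Control mice the change to 24 h was 0.46 (adjusted p = 0.0912), and the limma estimate at 7 d was 0.61 ± 0.20 (adjusted p = 0.0466). The 7 d and 22 °C libraries did not overlap, but the call was lost in 7 of 8 fits that left out 1 library of the groups compared, as all such fits below do. The change of the KO effect on Sirt5 was 0.51 ± 0.30 at 24 h (adjusted p = 0.244) and 0.14 ± 0.30 at 7 d (adjusted p = 0.822), neither of them called. In the limma fit the 24 h change was 0.60 ± 0.28 (adjusted p = 0.174) with all libraries and 0.85 (adjusted p = 0.0148) without the KO library at 22 °C that held 8.09 RPKM.

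Sirt4, a mitochondrial sirtuin known for ADP-ribosylation of glutamate dehydrogenase and for control of malonyl-CoA decarboxylase, was low, with 24 to 87 reads in a library. KO libraries at 22 °C held 1.76, 2.04, 2.04 and 2.23 RPKM, below the Control range of 2.79 to 3.69 also after scaling. KO over Control at 22 °C did not pass the deposited test (log2 fold change -0.45, adjusted p = 0.133). It had a limma 95% interval of -0.72 to -0.06 (adjusted p = 0.0616, or 0.0471 without the shallowest Control library). In KO mice Sirt4 rose to 2.95 to 4.17 RPKM at 24 h (log2 fold change 0.72, adjusted p = 0.00533). It stood at 2.96 to 4.17 at 7 d (limma 0.64 ± 0.16, SE, against 22 °C, adjusted p = 0.00256). Control libraries ranged over 3.01 to 4.67 at 24 h and 2.88 to 3.86 at 7 d, overlapping those at 22 °C (log2 fold change at 24 h 0.31, adjusted p = 0.320). All 3 mitochondrial sirtuins were called higher in KO mice at 24 h than at 22 °C, and none in Control mice, where 22.1% and 13.1% of all listed genes were called higher in KO and Control mice. For Sirt4 the change of the KO effect from 22 °C to 24 h was 0.41 ± 0.34 (SE, adjusted p = 0.455) and was not called.

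Sirt1, a nuclear deacetylase of transcription factors and coactivators, Ppargc1a among them, fell after cold in both genotypes. Control libraries held 6.20, 8.99, 9.34 and 9.47 RPKM at 22 °C, 4.30, 4.73, 5.03 and 5.62 at 24 h recovery, and 5.07, 5.73, 5.92 and 6.02 at 7 d. KO libraries held 5.26, 5.67, 6.06 and 7.37 RPKM at 22 °C, 3.62, 3.91, 4.31 and 4.54 at 24 h, and 3.89, 4.15, 4.26 and 4.60 at 7 d. In each genotype every recovery library lay below every 22 °C library, with 1 Control library at 22 °C, at 6.20, close to the recovery values. At 24 h Sirt1 was 1.64-fold lower in Control mice (log2 fold change -0.72, adjusted p = 6.7e-05) and 1.53-fold lower in KO mice (log2 fold change -0.61, adjusted p = 4.0e-04).

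At 7 d Sirt1 was still below its 22 °C level, by limma, at -0.42 ± 0.12 (SE, adjusted p = 0.0275) in Control mice and -0.55 ± 0.12 (adjusted p = 0.00142) in KO mice. The Control call was lost in 5 of 8 fits that left out 1 library, and the KO call in none of 8. Between 24 h and 7 d the Control estimate was 0.26 (95% interval 0.01 to 0.52, adjusted p = 0.261) and the KO estimate 0.02 (-0.24 to 0.28, adjusted p = 0.963). KO over Control was not called at any time (adjusted p = 0.251, 0.680 and 0.108 at 22 °C, 24 h and 7 d). At 7 d the libraries of the genotypes did not overlap, and the limma interval was -0.58 to -0.07 (adjusted p = 0.0820). The KO effect on Sirt1 changed by 0.11 ± 0.22 at 24 h and -0.14 ± 0.22 at 7 d (adjusted p = 0.807 and 0.757), so no difference between genotypes in the response of Sirt1 was detectable.

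Sirt7, a deacetylase of the nucleus and nucleolus linked to ribosomal RNA transcription, is also described as a brake on heat production in brown fat. It was called lower in KO than in Control mice at 7 d recovery. Control libraries held 4.69, 5.18, 5.84 and 6.61 RPKM at 22 °C, 6.03, 6.66, 6.99 and 7.45 at 24 h, and 5.69, 6.28, 6.66 and 7.56 at 7 d. KO libraries held 4.39, 4.98, 6.12 and 6.53 RPKM at 22 °C, 4.02, 4.58, 4.65 and 4.92 at 24 h, and 3.77, 4.32, 4.33 and 5.03 at 7 d. The genotypes overlapped at 22 °C and stood apart at both recovery times, with KO below Control.

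KO over Control for Sirt7 was 0.20 at 22 °C (adjusted p = 0.404; -0.02 as the log2 ratio of unscaled means), -0.44 at 24 h (adjusted p = 0.0573) and -0.50 at 7 d (adjusted p = 0.0306). Limma called the 24 h difference (-0.39 ± 0.12, SE, adjusted p = 0.0306), with the call lost in 4 of 8 fits that left out 1 library. The change of the KO effect was -0.64 ± 0.24 at 24 h (adjusted p = 0.0460) and -0.71 ± 0.24 at 7 d (adjusted p = 0.0298), and limma gave -0.63 ± 0.17 (adjusted p = 0.0155) and -0.72 ± 0.17 (adjusted p = 0.00825). Neither side of it was called in the deposited tests, with 24 h recovery at 0.33 in Control mice (adjusted p = 0.152) and -0.31 in KO mice (adjusted p = 0.158). Limma called the Control side (0.36 ± 0.12, adjusted p = 0.0376, lost in 5 of 8 fits that left out 1 library) and not the KO side (adjusted p = 0.0805). At 7 d limma gave 0.36 ± 0.12 in Control mice (adjusted p = 0.0505) and -0.36 ± 0.12 in KO mice (adjusted p = 0.0233, lost in 3 of 8 such fits). Mafg overlaps Sirt7 on the same strand without sharing exons and did not follow it at 22 °C, where it was higher in KO mice (log2 fold change 0.67, adjusted p = 0.0219).

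Sirt6, a chromatin deacetylase and ADP-ribosyltransferase that acts in DNA repair and on metabolic genes, was the least abundant sirtuin in every group, with 18 to 67 reads in a library. At 22 °C Control libraries held 2.28, 2.37, 2.66 and 2.85 RPKM and KO libraries 0.921, 1.34, 1.82 and 1.92, with no overlap. The deposited log2 fold change was -0.54 (adjusted p = 0.102), and limma gave -0.51 ± 0.20 (SE, adjusted p = 0.0489), a call lost in 6 of 8 fits that left out 1 library. KO means at recovery, 1.83 ± 0.0887 (SD, n = 4) at 24 h and 1.85 ± 0.558 at 7 d, were below Control means of 2.50 ± 0.303 and 2.31 ± 0.441, with deposited adjusted p of 0.455 and 0.628.

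Sirt2, a mainly cytosolic deacetylase of tubulin and of metabolic enzymes and regulators, was the steadiest sirtuin over the 5 deposited comparisons, with log2 fold changes between -0.04 and 0.24 and no call. Control means were 25.5 ± 2.43, 25.9 ± 1.86 and 25.5 ± 1.88 RPKM (SD, n = 4) at 22 °C, 24 h and 7 d. KO libraries held 20.3, 21.8, 22.1 and 22.3 RPKM at 22 °C, 18.9, 21.0, 24.6 and 27.5 at 24 h, and 27.6, 27.8, 28.0 and 32.0 at 7 d. The RPKM of the genotypes at 22 °C did not overlap, but the scaled values did, and the deposited log2 fold change was 0.00. At 7 d Sirt2 in KO mice was above its 22 °C level by limma (0.38 ± 0.10, SE, adjusted p = 0.00638) and lay above all Control libraries of that time. KO over Control at 7 d was not called, with an adjusted p of 0.250 in the deposited test and 0.0787 in limma.

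By limma, 7 d recovery against 22 °C called 2 sirtuins in Control mice (13.5% of 9639 genes were called) and 6 in KO mice (39.9% of genes), the latter being all but Sirt6. No sirtuin was called between 24 h and 7 d in either genotype, where limma called 2.84% of genes in Control mice and 3.81% in KO mice. Before adjustment, under 0.05, this contrast held 1 sirtuin in Control mice (Sirt1, higher at 7 d) and 1 in KO mice (Sirt2, higher at 7 d). Without the shallowest KO library at 24 h, Sirt2 was called (adjusted p = 0.0236).

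The mitochondrial members were low against the nuclear ones in KO mice at 22 °C, and the sign of the smaller differences during recovery depended on Sirt3. Summed RPKM of Sirt3, Sirt4 and Sirt5 over that of Sirt1, Sirt6 and Sirt7 in Control libraries was 2.86, 3.30, 3.56 and 4.23 at 22 °C, 3.74, 3.78, 4.02 and 4.80 at 24 h, and 3.73, 3.93, 4.05 and 4.29 at 7 d. In KO libraries it was 1.34, 1.48, 1.54 and 1.65 at 22 °C, 4.78, 4.98, 5.49 and 5.89 at 24 h, and 4.28, 4.84, 5.24 and 5.25 at 7 d. This ratio is free of library scaling, and it was lowest in the 4 KO libraries at 22 °C.

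During recovery KO libraries were above Control libraries with 1 crossing at each time. At 24 h the highest Control library (4.80) overlapped the lowest KO library (4.78), and at 7 d the highest Control (4.29) overlapped the lowest KO (4.28). The summed level of the mitochondrial members was 19.7 RPKM in KO mice at 22 °C and 50.8 to 58.3 in the other 5 groups. That of the nuclear members was 16.6, 14.2 and 14.5 RPKM in Control mice at 22 °C, 24 h and 7 d and 13.1, 10.5 and 10.4 in KO mice, so the ratio of KO mice in recovery came with lower nuclear sums. As a mean of deposited log2 fold changes, mitochondrial minus nuclear members was -0.81 for KO over Control at 22 °C, 0.19 at 24 h and 0.11 at 7 d, and 0.35 and 1.34 for 24 h recovery in Control and KO mice. Without Sirt3 the value of KO over Control was -0.57 at 22 °C, 0.00 at 24 h and -0.07 at 7 d, and that for recovery was 0.50 in Control and 1.06 in KO mice. Members are not replicates, so these values carry no test.

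**Figure D3:**
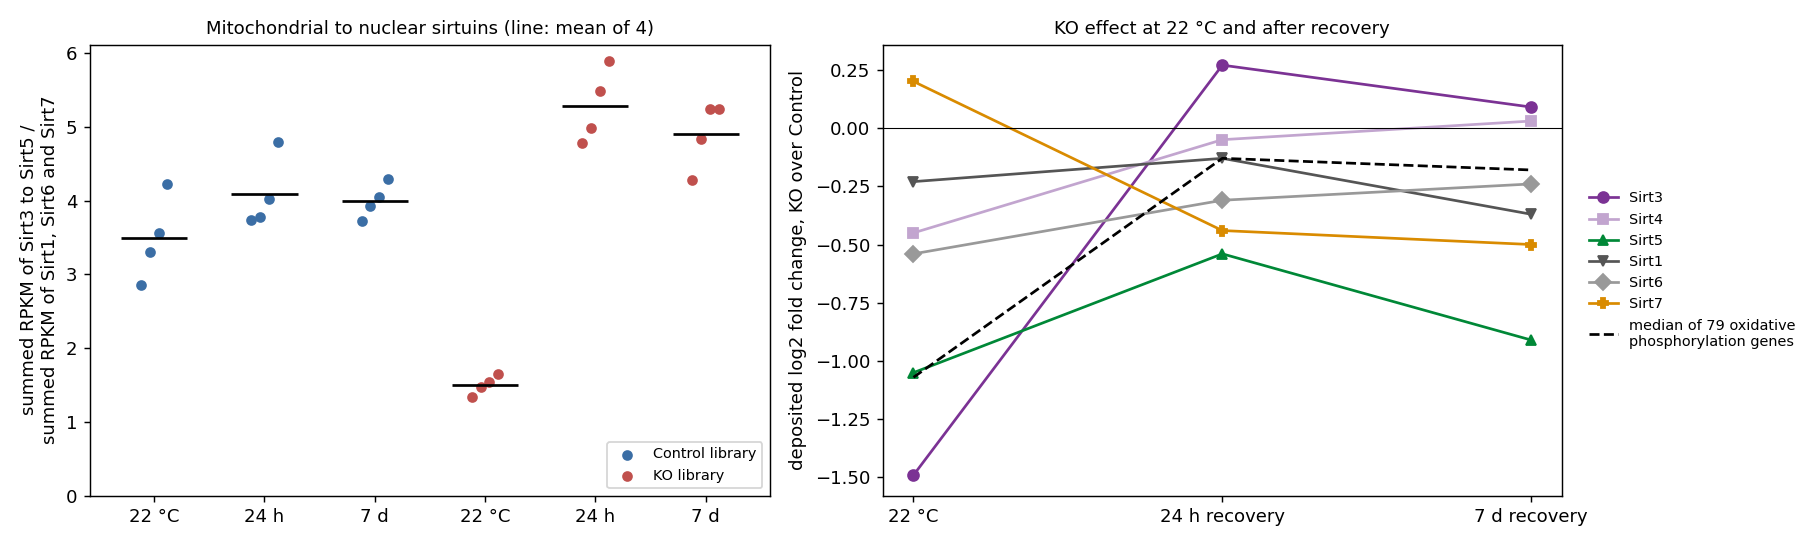
Left: summed RPKM of Sirt3, Sirt4 and Sirt5 divided by that of Sirt1, Sirt6 and Sirt7 in each library (Control blue, KO red), with a line at the mean of 4. Right: deposited log2 fold change of KO over Control at 22 °C, 24 h and 7 d recovery for 6 sirtuins and, dashed, the median of 79 nuclear genes of oxidative phosphorylation. The ratio is 1.34 to 1.65 in KO mice at 22 °C, and Sirt5 stays below 0 at all times while Sirt3 goes from -1.49 to 0.27 and 0.09.

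Many genes of the compartment in which Sirt3, Sirt4 and Sirt5 act changed in the direction of Sirt3 in KO mice, and part of them also rose in Control mice at 24 h, where Sirt3 was not called (-0.08). Of 79 nuclear genes of oxidative phosphorylation, the respiratory chain and ATP synthase, 76 were lower and 2 higher in KO than in Control mice at 22 °C (median log2 fold change -1.07, against -0.01 for all listed genes). Among all listed genes 18.0% were called lower and 16.3% higher in this comparison. Sirt3 was at -1.49 there and Sirt5 at -1.05. At 24 h recovery 74 had risen in KO mice and 0 had fallen (median 1.24, against -0.02 for all genes), and in Control mice 34 had risen and 0 had fallen (median 0.34, against 0.01). Among all genes 22.1% had risen and 19.8% had fallen in KO mice, and 13.1% and 8.67% in Control mice. For KO over Control the median of the 79 genes was -0.13 at 24 h and -0.18 at 7 d, where Sirt5 was at -0.54 and -0.91. Cox7a1, a cytochrome oxidase subunit of brown fat and muscle, was at -3.80 for KO over Control at 22 °C and at 3.93 for recovery in KO mice (adjusted p = 1.5e-77 and 2.0e-82).

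Proteins known as substrates of the mitochondrial sirtuins gave a like count, but the lists share Sdha, Sdhb, Ndufa9, Atp5a1 and Atp5o. Of 33 listed, 26 were lower and 2 higher in KO mice at 22 °C (median -0.89), and 26 rose and 2 fell at 24 h recovery in KO mice (median 1.35), against 14 and 2 in Control mice (median 0.31). Among all listed genes 18.0% were lower and 16.3% higher at 22 °C. At 24 h recovery 22.1% of all genes rose and 19.8% fell in KO mice, against 13.1% and 8.67% in Control mice. Textbook targets of Sirt3 were lower in KO mice at 22 °C, among them the isocitrate dehydrogenase Idh2 (log2 fold change -1.72, adjusted p = 2.1e-22) and the superoxide dismutase Sod2 (-1.41, adjusted p = 2.9e-26). The acetyl-CoA synthetase Acss1 was at -2.04 (adjusted p = 1.5e-26). Idh2 rose in KO mice at 24 h by 0.87 (adjusted p = 1.4e-06) and fell in Control mice by 1.04 on the log2 scale (adjusted p = 2.8e-08), where Sirt3 was at -0.08. Aldh2, the mitochondrial aldehyde dehydrogenase, went the other way, higher in KO mice at 22 °C (1.37, adjusted p = 1.0e-23) and lower at 24 h than at 22 °C in KO mice (-0.86, adjusted p = 4.2e-10).

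Among 10 genes listed for NAD synthesis, transport or phosphorylation, 4 were lower and 1 higher in KO mice at 22 °C (median log2 fold change -0.32). Among all genes 18.0% were lower and 16.3% higher, and with 10 genes this count is not far from the background. The lower ones were Nampt, the rate-limiting enzyme of the salvage pathway from nicotinamide (-0.60, adjusted p = 0.00171), and Nadsyn1, the NAD synthetase (-0.89, adjusted p = 1.5e-04). They further included Naprt, which starts from nicotinic acid (-0.47, adjusted p = 0.0348), and Slc25a51, the mitochondrial NAD carrier (-0.34, adjusted p = 0.0281). The 1 higher was the NAD kinase gene Nadk, whose product uses NAD and does not make it (0.67, adjusted p = 6.5e-07). At 24 h recovery in KO mice 4 rose and 2 fell, led by Slc25a51 (1.06, adjusted p = 5.4e-15) and Nampt (0.92, adjusted p = 3.5e-07), and in Control mice 3 of 11 rose and 2 fell. Among all genes 41.9% were called for 24 h recovery in KO mice and 21.8% in Control mice. Nmnat1, the nuclear adenylyltransferase of the pathway, rose in both genotypes (0.76 in Control, adjusted p = 8.9e-04, and 0.88 in KO mice, adjusted p = 4.0e-05). Nmnat3, its mitochondrial form, fell in both (-0.77, adjusted p = 9.3e-04, and -0.56, adjusted p = 0.0127). Nadsyn1 was lower in KO mice at all 3 times, as was Sirt5, with -0.55 at 24 h (adjusted p = 0.0357) and -0.69 at 7 d (adjusted p = 0.00637).

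Of 18 listed genes that consume NAD or clear nicotinamide, 5 were higher and 3 lower in KO mice at 22 °C, where 34.3% of all genes were called. At 24 h recovery 10 fell and 3 rose in KO mice, where 19.8% of all genes fell and 22.1% rose, and 5 fell and 1 rose in Control mice, where 8.67% fell and 13.1% rose. Parp9 and Parp10, of the ADP-ribosyltransferase family, were higher in KO mice at 22 °C (1.38, adjusted p = 9.6e-17, and 1.14, adjusted p = 3.7e-09) and stayed higher at 24 h and 7 d (Parp9 0.85 and 0.59, Parp10 0.63 and 0.61, largest adjusted p = 0.00931). Parp1, the main poly(ADP-ribose) polymerase of the nucleus, was lower at 22 °C (-0.56, adjusted p = 1.2e-05) and 7 d (-0.58, adjusted p = 1.6e-05). Nnmt, which methylates nicotinamide, rose at 24 h in Control (1.32, adjusted p = 9.0e-04) and KO mice (1.86, adjusted p = 2.1e-07). Parp4 fell in both genotypes, as Sirt1 did (-1.02, adjusted p = 6.6e-09, and -1.27, adjusted p = 5.8e-14).

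**Figure D4:**
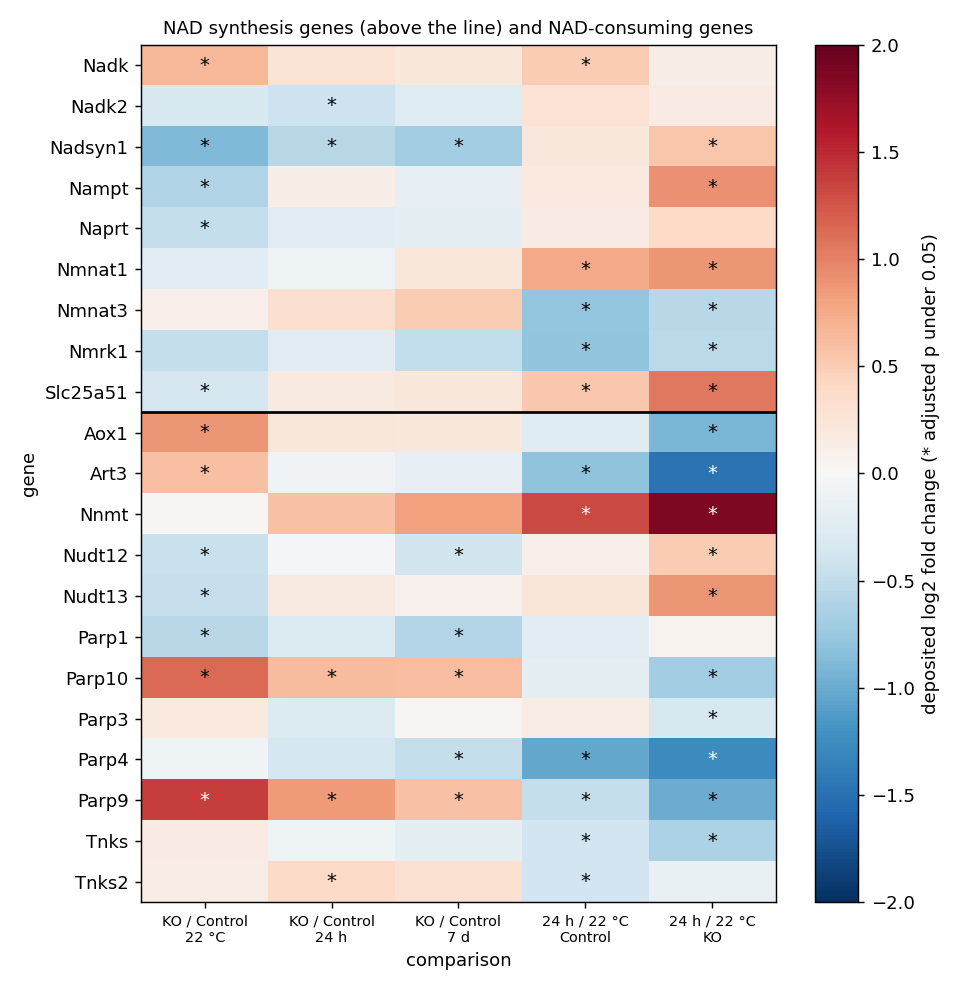
Deposited log2 fold changes (colour, from -2 in blue to 2 in red) of 9 genes of NAD synthesis, transport or phosphorylation (above the line) and 12 NAD-consuming or nicotinamide-clearing genes (below it) in the 5 deposited comparisons (columns), with a star where the adjusted p is under 0.05. Parp9 and Parp10 are red in all 3 comparisons of KO with Control, and Nampt and Slc25a51 turn from blue at 22 °C to red for recovery in KO mice.

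Among 19 listed regulators and partners of sirtuins, 5 were lower and 0 higher in KO mice at 22 °C, where 18.0% of all genes were called lower and 16.3% higher. The share of the list called in either direction was below that of all genes. They included the coactivators Ppargc1a (-1.44, adjusted p = 1.5e-04) and Ppargc1b (-1.50, adjusted p = 1.1e-09) and the estrogen-related receptor Esrra (-1.08, adjusted p = 4.8e-14), which are known to drive mitochondrial genes. The others were Foxo4 (-0.72, adjusted p = 6.6e-05), a transcription factor that sirtuins deacetylate, and Tfam (-0.48, adjusted p = 7.9e-04), which maintains mitochondrial DNA. In KO mice at 24 h Ppargc1a (1.37, adjusted p = 2.9e-04) and Ppargc1b (1.25, adjusted p = 4.6e-07) rose, as Sirt3 did. So did Esrra (1.17, adjusted p = 1.5e-16) and Tfam (1.15, adjusted p = 1.2e-18). In Control mice at 24 h Esrra rose by 0.41 (adjusted p = 0.0147), and Ppargc1a was at 0.13 (adjusted p = 0.853). At 24 h in KO mice 5 of the list rose and 5 fell, with 22.1% and 19.8% of all genes doing so. Usp22, a deubiquitinase that stabilizes Sirt1 (-0.69, adjusted p = 4.0e-04), and Elk4, a partner of Sirt7 (-0.77, adjusted p = 2.0e-07), were among the latter. Usp22 (-0.65, adjusted p = 0.00284) and Elk4 (-0.45, adjusted p = 0.00984) fell in Control mice too.

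Markers of other cells are given beside these results, and their part in them was not tested. For KO over Control at 22 °C, 16.3% of all listed genes were called higher and 18.0% lower. At 24 h and 7 d, 7.96% and 6.14% were called lower. For 24 h recovery, 13.1% were called higher in Control mice, and 22.1% higher and 19.8% lower in KO mice. In KO mice at 22 °C, where Sirt3 and Sirt5 were lowest, the summed level of 5 listed white adipocyte markers was 235 RPKM against 52.7 to 110 in the other groups, with 2 of 5 called higher than in Control mice. No listed marker was at 0. Of 14 brown adipocyte markers, 5 were higher and 5 lower there. Ucp1 was at -5.39 (adjusted p = 4.2e-33), and Cidea (-1.42, adjusted p = 1.1e-16) and Ebf2 (-1.15, adjusted p = 2.8e-11) were lower too. Elovl3 (3.25, adjusted p = 4.5e-09) and Adrb3 (1.65, adjusted p = 1.8e-10) were higher. So were the general adipocyte genes Fabp4 (1.24, adjusted p = 2.5e-21) and Adipoq (0.76, adjusted p = 8.4e-05). Of 13 macrophage markers, 2 were higher in KO mice at 22 °C, near the share of all genes. In Control mice 11 were higher at 24 h, where Sirt1 was lower (summed level 150 RPKM at 22 °C, 346 at 24 h and 175 at 7 d). In KO mice, where Sirt1 fell as well, that sum was 180, 210 and 149, and 1 marker fell and 0 rose at 24 h. Skeletal muscle markers summed to 994 and 835 RPKM in Control and KO mice at 7 d, against 181 to 308 elsewhere. None of the 14 was called in the 5 tables, but these do not compare 7 d with 22 °C or 24 h. The higher sums at 7 d were thus not tested by them. Fibroblast and preadipocyte markers, like Sirt7, had lower summed levels in KO than in Control mice at both recovery times. Their 1 call at 7 d is near the share of all genes. Their sum over 10 markers was 327, 501 and 445 RPKM in Control mice at 22 °C, 24 h and 7 d and 350, 289 and 302 in KO mice, with 0, 4 and 1 markers called lower in KO than in Control mice at these times. Among them Col1a1, a collagen gene, was at 0.11 (adjusted p = 0.857), -0.87 (adjusted p = 0.0366) and -0.89 (adjusted p = 0.0354) for KO over Control. The sum of 5 Schwann cell markers was lower in KO mice at all 3 times. It was 55.3, 78.4 and 54.0 RPKM in Control and 27.0, 42.3 and 29.5 in KO mice. Of these markers 1, 1 and 2 were called lower, and 1, 0 and 0 higher. S100b was called lower each time (-4.74, -1.61 and -2.18, largest adjusted p = 6.0e-13). At 22 °C S100b stood at 31.4 RPKM in Control and 0.987 in KO mice. Mbp was higher in KO mice there (0.69, adjusted p = 6.5e-05). Endothelial sums were 191 to 230 RPKM in all groups. Of 5 lymphocyte markers listed at 22 °C, 4 were called higher in KO mice (median 2.10, summed level 2.41 RPKM in Control and 5.91 in KO mice). At 24 h 1 of 3 was called higher and at 7 d 0 of 2, with 10.5% and 9.18% of all genes called higher. Of 7 erythroid genes, 0 were called higher in KO mice at 22 °C and 24 h, and 2 at 7 d.

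By the smallest root mean square difference of centred log2 profiles over the 6 group means, among 9993 genes, Sirt3 was most like Rxrg (0.0915), Qrsl1 (0.0920) and Uchl3 (0.0952). Genes near Sirt5 included Lipo1 (0.136) and Tmx2 (0.138), and Sirt4 was most like Msantd4 (0.0309), Romo1 (0.0354) and Nipa2 (0.0375). Sirt1 was most like Sfpq (0.0429), Ep300 (0.0505) and Kdm5b (0.0560), and Sirt7 like Zbtb14 (0.0666), Als2cl (0.0710) and Adamts10 (0.0744). Rxrg went from 11.1 RPKM in Control to 3.51 in KO mice at 22 °C and stood at 9.80 at 24 h in KO mice. Sfpq, an RNA-binding protein gene, went from 29.1 to 18.4 and 20.9 RPKM in Control mice and from 22.4 to 15.4 and 15.1 in KO mice. Each profile has 6 points, and other measures of likeness named other genes. By Pearson correlation, 1 of the 3 named genes remained for Sirt3 (Qrsl1), and none for Sirt1, Sirt4 and Sirt7.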

How the data were processed

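Values come from 5 tables of the authors, 1 for each deposited comparison of 4 libraries with 4. The authors' tools were STAR, featureCounts and edgeR, with mm9 as the build, per the submitters' processing notes, which give no versions. Columns are, per the file headers, log2 fold change, p-value with its adjusted form, average log2 CPM, gene length and the means of both groups. The deposited means carry no unit and behaved as RPKM on raw library totals. Genes are listed from 0.5 RPKM in the higher group. The tables hold no library counts, so the authors' edgeR adjusted p is the main test of each deposited comparison. The labels call the libraries biological replicates and do not say that each was a separate mouse, so p-values measure the spread between libraries.

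After the tables were read, an analysis was added. Each deposited mean, printed to 15 digits, is an average of 4 whole read counts over their library totals. Genes with 1 read gave the totals, and the counts that solve each mean were searched for exhaustively. Of the 67415 means within the search limit, 99.3% were solved, with several solutions for 0, and all 42 sirtuin means were solved. The search and the limma fit were tested on simulated data. The search solved 2981 of 3000 genes there, 0 of them wrongly. For KO against Control at 22 °C, limma recovered 4 of 50 genes set 1.5-fold apart and 25 of 50 set 2-fold apart. At 3-fold and 4-fold it recovered 49 and 46 of 50, and 9 unchanged genes were called. The simulation left most of the 9639 genes unchanged and gave all genes the same dispersion. In the data limma called 33.6% of genes in this comparison, so the share it recovers there can differ. A missing limma call at 2-fold or less does not show that a gene was unchanged. Libraries obtained this way have no replicate number and are ranked by total. For 9639 genes solved in all groups, log2(RPKM + 0.1), scaled by each library's median ratio, was fitted with limma 3.58.1 (trend) in R 4.3.3 and adjusted by Benjamini-Hochberg. Fold changes on this scale understate those of low genes.

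Differences in KO effect are differences of deposited log2 fold changes, with errors rebuilt from the p-values (for p up to 0.9) and adjusted over 10734 genes at 24 h and 10591 at 7 d. Members and lists were chosen with earlier results of these data known. Named genes are the sirtuins, Hdac3, Ucp1, up to 6 members of each list with the smallest p in a comparison with a call, the 3 genes most like each called sirtuin, and genes next to a sirtuin; some genes this rule names are not reported here. Sums in RPKM over the 6 groups, for genes listed in all of them, were 1079 to 1906 for 7 erythroid genes and 0.605 to 3.95 for 2 lymphocyte markers. Alternatives are given at the end.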

Additional observations from a re-analysis of the deposited data

Results flagged for a closer look

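In 42 sets of 4 libraries (7 sirtuins in 6 groups), 4 library values stood apart from the other 3 of their group by Dixon's criterion, and chance gives about 1 in 20. They were Sirt1 at 6.20 RPKM in Control mice at 22 °C (the others 8.99 to 9.47), Sirt2 at 32.0 in KO mice at 7 d (the others 27.6 to 28.0), Sirt3 at 48.8 in KO mice at 24 h (the others 39.0 to 40.5) and Sirt4 at 4.17 in KO mice at 7 d (the others 2.96 to 3.16).

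For 2 sirtuins the KO effect differed between recovery and 22 °C by the test of the difference itself, with errors rebuilt from the deposited edgeR p-values. Sirt2 at both times and Sirt4 at 7 d had a deposited p above 0.9 and were left out of this test. Limma did not call their differences (adjusted p = 0.916 and 0.320 for Sirt2 at 24 h and 7 d, 0.198 for Sirt4 at 7 d). For Sirt3 the log2 difference was 1.76 at 24 h (adjusted p = 2.8e-17) and 1.58 at 7 d (adjusted p = 1.0e-13). For Sirt7 it was -0.64 at 24 h (adjusted p = 0.0460) and -0.71 at 7 d (adjusted p = 0.0298), the opposite direction.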

How the results depend on the processing

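No call changed direction under any alternative. No paired analysis was possible because the deposited columns are group means and the library values rebuilt from them carry no replicate number. The number of sirtuins called for KO against Control at 24 h, 1 in the deposited test, was 0 with a threshold of 0.01 or a minimum change of 1.5-fold, and 2 with p-values adjusted over genes whose average log2 CPM reaches 3, and also 2 with limma at a pseudocount of 1, without scaling, or over genes of at least 1 RPKM. At 7 d it was 1 in place of 2 with a threshold of 0.01 or the 1.5-fold minimum, and 3 with limma without scaling. At 22 °C it was 5 in place of 2 with limma without scaling, which shifts the median gene. It was 3 there with limma at its main setting and over genes of at least 1 RPKM. For 24 h recovery in Control mice it was 2 in place of 1 with limma, with limma at a pseudocount of 1, and over genes of at least 1 RPKM. For 7 d recovery in Control mice it was 1 in place of 2 without scaling. It was 3 there with limma at a pseudocount of 1 and over genes of at least 1 RPKM. For 7 d recovery in KO mice it was 5 in place of 6 without scaling. The change of the KO effect on Sirt2 at 7 d was called without scaling alone (0.41, adjusted p = 0.0461). Mitochondrial minus nuclear sirtuins at 22 °C, -0.81 as a mean of log2 fold changes, was -0.57 without Sirt3 and -1.20 from summed RPKM, and for recovery in KO mice, 1.34, it was 1.06 and 1.81. Leaving out each library of the compared groups in turn gave 0 to 1 calls for KO against Control at 24 h, 1 to 4 for 24 h recovery and 0 to 2 for 7 d recovery in Control mice, 0 to 1 for 7 d against 24 h in KO mice, and 0.44 to 0.85 for the change of the KO effect on Sirt5 at 24 h. Leaving out libraries of other groups, which share the estimate of spread, gave up to 3 calls for KO against Control at 24 h, without the KO library at 22 °C that held the most Sirt5, and up to 3 for 7 d recovery in Control mice. Without Sirt3, mitochondrial minus nuclear sirtuins for KO over Control went from 0.19 to 0.00 at 24 h and from 0.11 to -0.07 at 7 d. The cause of these changes was not tested. Sirt4 and Sirt6, with as few as 24 and 18 reads in a library, are limited by depth.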

Other observations

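Within the KO group at 22 °C, the library with the most Sirt5 (8.09 RPKM) had the least Ucp1 (9.38 RPKM), and the library with the least Sirt5 (3.13 RPKM) had the most Ucp1 (68.4 RPKM). The other 2 libraries held 3.55 and 4.71 RPKM of Sirt5 beside 24.8 and 28.4 RPKM of Ucp1. Sirt3 ranged only from 11.9 to 13.9 RPKM over the same libraries and Hdac3 from 8.17 to 9.00. With 4 libraries this was not tested.

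Sirt5 and Nadsyn1 were the members of the sirtuin and NAD synthesis lists called lower in KO mice at 22 °C, 24 h and 7 d in the deposited edgeR tests, and Parp9 and Parp10 were the NAD-consuming genes called higher at all 3 times. These genes were picked because they were called at all 3 times, so their difference between genotypes during recovery follows from that choice. The share of all genes called in the same direction at all 3 times was not computed. The median of 79 oxidative phosphorylation genes, -0.13 at 24 h and -0.18 at 7 d, is of a list not picked this way. The Sirt5 call at 24 h (deposited edgeR adjusted p = 0.0447) was lost with limma (adjusted p = 0.120).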
